A study of Mus musculus with 6 samples.

Results

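The genes described here are 7 interferon-inducible GTPase genes, Irgm1, Irgm2, Igtp, Iigp1, Ifi47, Gbp2 and Gbp3, together with Irf1, which encodes a transcription factor and not a GTPase. They were picked by symbol from the array annotation, and all 8 were measured, by 10 probe sets with 1 gene symbol each, out of 12393 genes tested. The levels came from mammary tumors of mice treated for 21 days with vehicle (3 arrays) or with a combination of VX680, miltefosine and WP1066 (3 arrays). VX680 inhibits Aurora kinases, miltefosine is an alkylphosphocholine, and WP1066 inhibits JAK2 and STAT3 signalling. The sources used here do not give doses, mouse strain, age or tumor model. They also do not say whether each array is a separate animal, so standard errors and p-values cover only the spread among these arrays, part of which may be technical. Replicates carry the numbers 1 to 3 in the order the samples were deposited, which name the arrays and pair none of them. The genes were proposed with this same contrast in view, so their values are given as a description, with no test. Epithelial markers were at a high level: Krt8, a simple epithelial keratin, lay between 12.40 and 12.67 on the log2 scale over the 6 arrays. Epcam, an epithelial adhesion molecule, had means of 11.94 in the vehicle group and 11.93 in the drug group. Markers of other cells were high too, with Col1a2 of fibroblasts at 12.01 to 12.67 and Lyz2 of macrophages at 11.74 to 12.36. Acta1 of skeletal muscle ran from 4.61 to 12.49. These levels do not give the share of each cell type in the tissue.

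Interferon-gamma, released by T and NK cells, binds a receptor made of IFNGR1 and IFNGR2 and activates the kinases JAK1 and JAK2. Many promoters that answer this signal carry the GAS element, and among the induced genes is Irf1, whose protein in turn binds the ISRE element, the site that the type I interferon factor ISGF3 also uses. The immunity-related GTPases (IRG) and the guanylate binding proteins (GBP) are targets of this cascade, best known in mouse cells for attacking the vacuoles of intracellular parasites. Irgm1, Irgm2 and Igtp (also called Irgm3) are regulatory IRG proteins that keep the others inactive on the cell's own membranes, whereas Iigp1 (Irga6) and Ifi47 (Irgd) belong to the group that loads onto vacuoles.

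The sequences before the annotated starts are shown because both elements can be read in them. RefSeq promoter windows of build GRCm38.p6 were matched for 7 of the 8 genes; Iigp1 had no match. Each line gives the 150 bases before the start of the first annotated transcript, 5′ to 3′ on the gene's strand, and capitals mark matches to GAS (TTCNNNGAA) or ISRE (GAAA, any 2 bases, then GAAA, or the reverse complement of this), searched on both strands. The windows lie at chr11:48871421-48871570 (minus strand) for Irgm1, chr11:58199406-58199555 (plus strand) for Igtp, chr11:58214827-58214976 (plus strand) for Irgm2, chr3:142620513-142620662 (plus strand) for Gbp2, chr3:142559894-142560043 (plus strand) for Gbp3 and chr11:53769864-53770013 (plus strand) for Irf1.
Irgm1: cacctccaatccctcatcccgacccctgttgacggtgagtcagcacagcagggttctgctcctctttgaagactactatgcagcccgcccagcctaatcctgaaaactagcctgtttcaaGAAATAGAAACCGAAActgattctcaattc
Igtp: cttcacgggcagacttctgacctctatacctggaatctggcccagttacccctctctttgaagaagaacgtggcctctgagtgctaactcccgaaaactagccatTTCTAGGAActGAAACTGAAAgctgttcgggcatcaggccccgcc
Irgm2: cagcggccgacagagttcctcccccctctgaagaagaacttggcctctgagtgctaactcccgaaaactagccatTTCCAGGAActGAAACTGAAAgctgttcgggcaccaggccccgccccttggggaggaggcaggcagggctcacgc
Gbp2: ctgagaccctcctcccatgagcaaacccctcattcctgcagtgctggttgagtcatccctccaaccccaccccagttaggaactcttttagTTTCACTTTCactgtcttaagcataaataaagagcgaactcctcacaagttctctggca
Gbp3: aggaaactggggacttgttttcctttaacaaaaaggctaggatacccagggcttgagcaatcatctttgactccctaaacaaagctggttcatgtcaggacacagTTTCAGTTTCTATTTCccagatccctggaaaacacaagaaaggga
Irf1: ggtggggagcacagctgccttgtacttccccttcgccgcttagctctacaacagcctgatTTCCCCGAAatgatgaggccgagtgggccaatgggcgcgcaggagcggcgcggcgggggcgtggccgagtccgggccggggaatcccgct

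An ISRE match stood in the windows of 5 genes, Irgm1, Irgm2, Igtp, Gbp2 and Gbp3, of the 7 matched, where 1.59% of all 32851 windows of this length held it. A GAS match stood in 3, Irgm2, Igtp and Irf1, where 4.09% of all windows held it. In Irgm1 a pair of ISRE matches overlapped, from base -30 to base -15 counted from the start, and in Gbp3 another pair overlapped on the opposite strand, from -45 to -30. Igtp and Irgm2 held both motifs side by side without overlap. Igtp had GAS from -45 to -37 and ISRE from -34 to -25, and Irgm2 had GAS from -75 to -67 and ISRE from -64 to -55. The 21 bases from the first to the last of these positions differed between Igtp and Irgm2 at 1 base. Over a longer stretch of 142 bases, from -92 of Igtp to 50 bases past its start, the pair of neighbouring genes was 97.9% identical, with 3 mismatches. Both genes lie on chromosome 11, as do Irgm1, Ifi47 and Irf1, while Gbp2 and Gbp3 lie on chromosome 3. The window of Irf1 held GAS alone, from -90 to -82, and that of Ifi47 held neither string. A match is a string of letters and not a measured binding site, and the second annotated starts of Gbp3 and Irf1 had no match in their own windows.

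**Figure D1:**
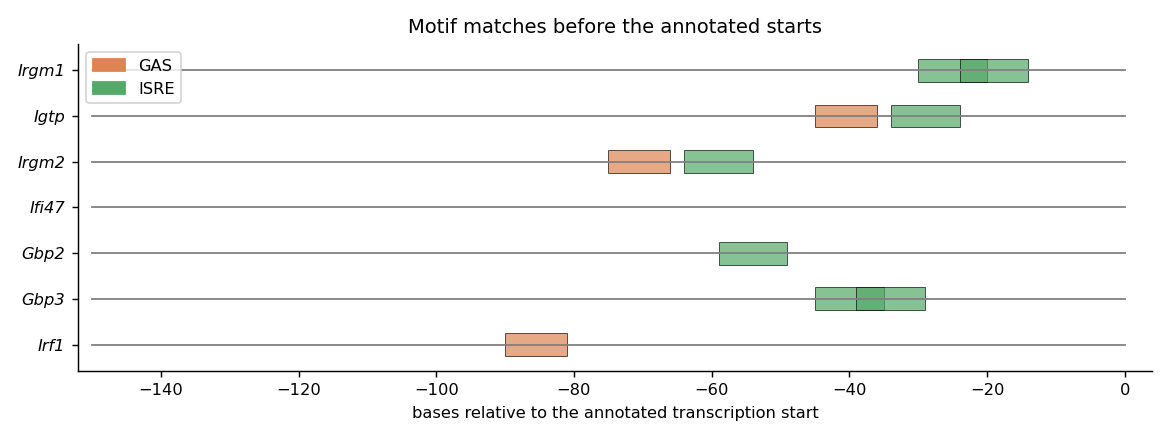
Positions of GAS (orange) and ISRE (green) matches in the 150 bases before the first annotated start of 7 genes, with distance from the start in bases on the x axis. Igtp and Irgm2 carry both motifs side by side, Irgm1 and Gbp3 each carry an overlapping pair of ISRE matches, Irf1 carries GAS alone, and no match lies in the Ifi47 window.

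Every one of the 8 genes had a lower mean after the drug combination, by 0.39 to 0.73 on the log2 scale, with a median difference of -0.62 against -0.01 over all genes tested. Over all genes, 52.1% had a lower mean in the drug group and 1.09% had a difference of -0.5 or lower; 6 of the 8 genes (all but Irgm1 and Irf1) lay beyond that size. By limma with Benjamini-Hochberg adjustment, 0 of 12393 genes (0%) reached an adjusted p of 0.05, the smallest being 0.231, while at an unadjusted p under 0.05 there were 609 lower genes (4.91%) and 666 higher genes (5.37%). The 3 drug values lay below the 3 vehicle values in 3 of the 8 genes, Irgm2, Ifi47 and Irf1, where 9.37% of all genes had that order. The rule that chose these genes used the same contrast, so nothing is read from those shares. In a bulk sample, fewer cells of a type and less RNA per cell cannot be told apart.

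Among the regulatory IRG genes, Irgm1 had log2 levels of 8.31, 8.35 and 7.93 in the vehicle group and 7.43, 7.55 and 8.26 in the drug group. Drug replicate 3 lay inside the vehicle range, so the groups overlapped. The means were 8.20 ± 0.24 and 7.75 ± 0.45 (SD, n = 3 each), a difference of -0.45 ± 0.24 (SE). Irgm2, which differs from Irgm1 in its resting membrane compartment, had 8.45, 8.40 and 7.94 in the vehicle group and 7.17, 7.57 and 7.86 in the drug group. Here drug replicate 3 was again the highest drug array, but it stayed below vehicle replicate 3, the lowest vehicle array. The difference of -0.73 ± 0.21 (SE, n = 3 per group), a 1.66-fold lower mean, was the largest of the 8. Igtp, a regulatory IRG of the endoplasmic reticulum, had 9.92, 9.81 and 9.52 in the vehicle group and 8.66, 8.86 and 9.60 in the drug group. Drug replicate 3 passed vehicle replicate 3 but not the other vehicle arrays. The difference in Igtp was -0.71 ± 0.25 (SE, n = 3 per group). Igtp and Irgm2, which share the motif pair printed above, thus had differences of close size, while only Irgm2 had groups that did not overlap. The close size was not particular to them, since Ifi47, with neither motif, differed by -0.63 ± 0.15. A link between motifs and differences was not tested.

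Of the IRG genes that act on vacuoles, Iigp1 had the widest spread. Its log2 levels were 10.08, 10.02 and 9.43 in the vehicle group and 8.67, 8.88 and 10.01 in the drug group. Drug replicate 3 lay above the vehicle mean, and the drug arrays spanned 1.35 on the log2 scale against 0.66 for the vehicle arrays. The difference was -0.65 ± 0.37 (SE, n = 3 per group). Ifi47 had 8.21, 8.12 and 8.01 in the vehicle group and 7.28, 7.34 and 7.81 in the drug group. The groups did not overlap, with drug replicate 3 the nearest to vehicle. The difference was -0.63 ± 0.15 (SE, n = 3 per group), a 1.55-fold lower mean, so Ifi47 had a difference close to that of Iigp1 with a smaller standard error. Ifi47 was also the GTPase gene whose window held neither motif.

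Gbp2, a GBP that coats parasite vacuoles, had log2 levels of 8.88, 9.09 and 8.52 in the vehicle group and 7.83, 7.96 and 8.86 in the drug group. Its neighbour Gbp3 had 8.35, 8.65 and 8.16 in the vehicle group and 7.54, 7.51 and 8.43 in the drug group. In both genes drug replicate 3 lay above the vehicle mean and the other drug arrays lay below every vehicle array. The differences were -0.61 ± 0.29 for Gbp2 and -0.56 ± 0.27 for Gbp3 (SE, n = 3 per group). The probe set used for Gbp2 carries the suffix by which the manufacturer marks probes shared with other transcripts. The second probe set of Gbp2, without that suffix, had 8.68, 8.83 and 8.38 in the vehicle group and 7.71, 7.86 and 8.66 in the drug group, a difference of -0.55 ± 0.25 with the same position of drug replicate 3. The second probe set of Iigp1 likewise followed the first, with 8.37, 8.25 and 7.67 in the vehicle group, 6.97, 7.34 and 8.24 in the drug group, and a difference of -0.58 ± 0.34 (SE, n = 3 per group).

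Irf1, the transcription factor of the set, had log2 levels of 8.33, 8.52 and 8.50 in the vehicle group and 7.92, 8.09 and 8.18 in the drug group. The groups did not overlap, and the arrays of each group lay close together, within 0.19 in the vehicle group and 0.27 in the drug group. Its means were 8.45 ± 0.10 and 8.06 ± 0.13 (SD, n = 3 each). The difference of -0.39 ± 0.09 (SE) was the smallest of the 8 genes and had the smallest standard error. Irf1 was also the 1 gene of the 8 in which vehicle replicate 3 was not the lowest vehicle array.

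**Figure D2:**
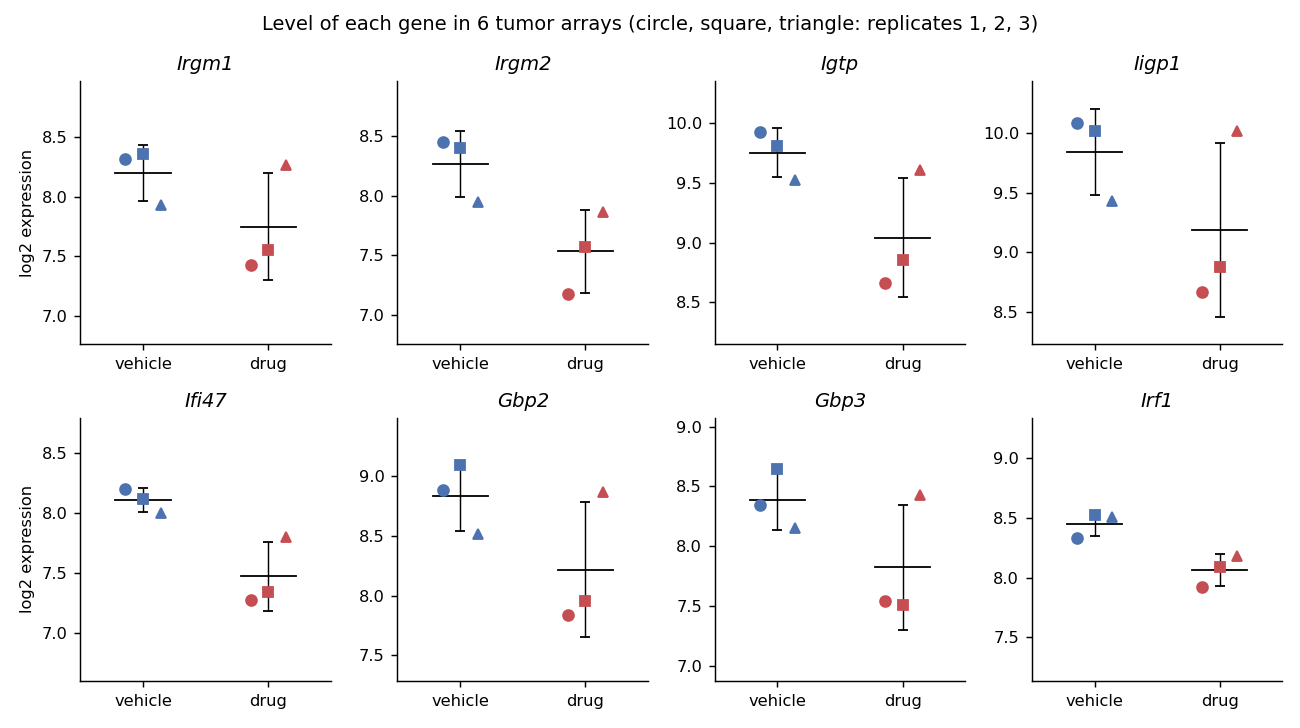
Log2 expression (y axis, 1 panel per gene, each spanning the same range) in 3 vehicle arrays (blue) and 3 drug arrays (red); circles, squares and triangles are replicates 1, 2 and 3, and horizontal lines with bars give the group mean and SD. Drug replicate 3 (red triangle) sits at vehicle level for Irgm1, Iigp1, Gbp2 and Gbp3, and below all vehicle arrays for Irgm2, Ifi47 and Irf1.

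Drug replicate 3 was the highest drug array in 8 of the 8 genes, where 34.7% of all genes had that order, and it lay at or above the lowest vehicle array in 5 of them (Irgm1, Igtp, Iigp1, Gbp2 and Gbp3), where 68.8% of all genes did. Relative to the vehicle mean, the median of the 8 genes was -0.92 in drug replicate 1, -0.82 in drug replicate 2 and -0.06 in drug replicate 3. As the highest drug array in all 8 genes, drug replicate 3 could only enlarge the differences when left out, so nothing is read from that setting. Without drug replicate 3, all 8 genes had drug arrays below all vehicle arrays, against 14.7% of all genes, and the median difference was -0.88. The differences then became -0.71 for Irgm1, -1.07 for Iigp1, -0.93 for Gbp2 and -0.86 for Gbp3. Without vehicle replicate 3, 7 of the 8 genes had drug arrays below all vehicle arrays, against 15.8% of all genes. That array was the lowest vehicle array in every gene but Irf1, so for those genes the direction of the change was likewise fixed. Without drug replicate 1 the differences were -0.29 for Irgm1 and -0.39 for Iigp1, and the median was -0.42.

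After each group's mean was subtracted, the GTPase genes still moved together from array to array. Over the 21 pairs of the 7 GTPase genes, Pearson's r over the 6 arrays ran from 0.763 to 0.997 with a median of 0.96, and with the group means left in it ran from 0.862 to 0.997 with a median of 0.95. Irf1 followed them less closely: its r with the 7 GTPase genes was 0.42 to 0.59 after subtraction and 0.68 to 0.88 before. These are descriptions over 6 points that share arrays and normalization.

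**Figure D3:**
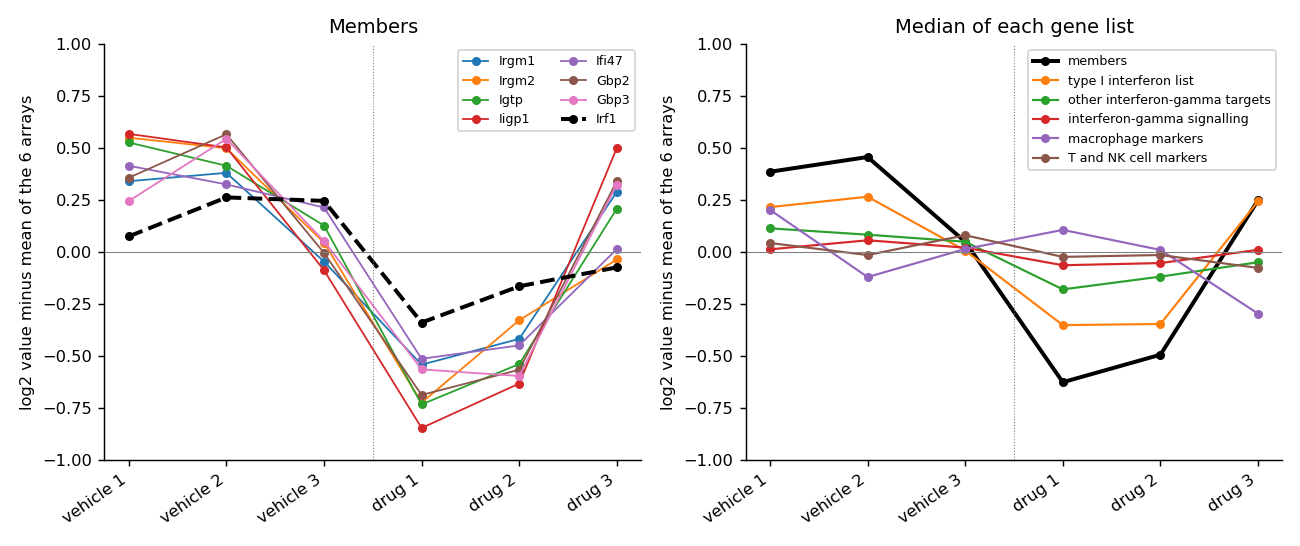
Log2 value minus the mean of the 6 arrays (y axis) in each array (x axis), for the 8 genes (left, Irf1 dashed) and as medians of gene lists (right); lines join the points of a gene or list and give no order of replicates. The 8 genes and the median of the type I interferon list are low in drug replicates 1 and 2 and higher in drug replicate 3, where Irgm2, Ifi47 and Irf1 still lie below every vehicle array and macrophage markers are lowest.

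The genes with the most similar pattern were sought among 710 genes outside the set with an SD of at least 0.3 over the 6 arrays, by Pearson's r with the mean centred profile of the 8 genes. The 6 closest were Oasl2 (r = 0.99), Ifit3 (0.98), Gbp7 (0.98), Plscr2 (0.98), Parp12 (0.97) and Cmpk2 (0.97), and 4.23% of the 710 genes had an r above 0.9. Oasl2, Ifit3 and Cmpk2 are interferon-stimulated antiviral genes, and Gbp7 is a further GBP. Ifit3 had log2 levels of 7.71, 7.52 and 7.25 in the vehicle group and 6.29, 6.69 and 7.38 in the drug group, which places drug replicate 3 inside the vehicle range as in Gbp2. After the group means were subtracted, the 6 closest were Helz2, Oasl2, Dhx58, Gdpd1, Zbp1 and Igfbp3 (r = 0.98 to 0.99), and 4.37% of the 710 genes had an r above 0.9. Of these Gdpd1 had a higher mean in the drug group, by 0.57 ± 0.19 (SE, n = 3 per group), with no overlap between the groups, while its other probe set gave 0.25 ± 0.24. Of the 6 genes closest over the 6 arrays, 5 were matched to windows. ISRE matches stood in 2 of these 5, Ifit3 and Gbp7, against 1.68% of the 9887 matched genes tested. A GAS match stood in 1 of the 5, Gbp7, against 4.15%.

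Further IRG and GBP genes had lower means as well. Of 23 listed, 4 had a probe set of their own, all GBP genes, and none of the 4 passed limma over all genes. Gbp7 had 8.38, 8.41 and 8.16 in the vehicle group and 7.31, 7.58 and 8.40 in the drug group, a difference of -0.55 ± 0.27. Gbp6, Gbp8 and Gbp2b differed by -0.59 ± 0.24, -0.38 ± 0.17 and -0.32 ± 0.10 (SE, n = 3 per group), and their vehicle means of 5.12, 2.88 and 4.30 were low on the array's scale. Gbp2b was the 1 of the 4 whose drug arrays all lay below the vehicle arrays, an order found in 9.37% of all genes.

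The ligand, receptor and kinase genes upstream had small differences. Of 15 measured genes of interferon-gamma signalling 0 passed limma over all genes, and the median difference was -0.04. At an unadjusted p under 0.05, 2 were lower and 0 higher, against 4.91% and 5.37% of all genes. All drug arrays lay below all vehicle arrays in 3 of the 15, Irf8, Socs1 and Crebbp, against 9.37% of all genes. Crebbp differed by only -0.04 ± 0.05. Ifng had values of 2.29 to 2.69 over the 6 arrays, on a scale whose lowest value was 1.88, with a difference of -0.04 ± 0.14. The receptor genes Ifngr1 and Ifngr2 differed by 0.05 ± 0.07 and -0.00 ± 0.06, and the kinase genes Jak1 and Jak2 by -0.05 ± 0.06 and -0.08 ± 0.09 (SE, n = 3 per group). Other probe sets gave -0.06 ± 0.09 and 0.10 ± 0.10 for Jak1 and -0.21 ± 0.10 for Jak2. The 2 genes with small p were Irf8 and Socs1. Irf8, an interferon-gamma induced factor of myeloid and B cells, had 7.07, 7.01 and 7.02 in the vehicle group and 6.66, 6.71 and 6.49 in the drug group, a difference of -0.42 ± 0.07. Unlike the GTPase genes, Irf8 was lowest in drug replicate 3. Socs1, the feedback inhibitor of JAK kinases, differed by -0.20 ± 0.05, again without overlap of the groups. Irf2, an antagonist of IRF1 at shared sites, differed by -0.01 ± 0.10. Irf9 and Socs3 differed by -0.19 ± 0.12 and -0.11 ± 0.08, with overlapping groups.

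Of 13 measured genes that induce interferon-gamma 0 passed limma over all genes, with a median of 0.02. Several were low on the array's scale, with vehicle means of 3.14 for Tbx21, 3.28 for Il12b, 3.53 for Il12a, 3.57 for Stat4 and 3.80 for Il12rb2. Such values may lie close to background, so a median near 0 does not show that these genes were unchanged. At an unadjusted p under 0.05, 0 of the 13 were lower and 2 higher, against 4.91% and 5.37% of all genes. The 2 were Il15, a growth factor of NK and memory T cells, higher by 0.40 ± 0.08, and its receptor chain Il15ra, higher by 0.26 ± 0.07 (SE, n = 3 per group). In both genes the lowest drug array exceeded the highest vehicle array, an order found in 7.73% of all genes. Il12rb2 and Ebi3 differed by 0.14 ± 0.09 and -0.19 ± 0.15. Among 8 measured genes of the interferon regulatory factor list the median was -0.07 and 0 passed, with Irf2bp1 at -0.12 ± 0.07 and Irf5 at 0.11 ± 0.09; that median was -0.12 without drug replicate 3.

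Other interferon-gamma targets had lower means in 30 of 34 measured genes, against 52.1% of all genes, with a median of -0.18. By limma 0 passed over all genes, and 11 lower and 0 higher genes had an unadjusted p under 0.05, against 4.91% and 5.37% of all genes. Psmb8 and Psmb9, immunoproteasome subunits, differed by -0.74 ± 0.10 and -0.53 ± 0.10, Fgl2, a secreted regulator of immune cells, by -0.88 ± 0.13 and Cd74, the class II invariant chain, by -1.96 ± 0.29 (SE, n = 3 per group). Psmb8 had 9.57, 9.87 and 9.94 in drug-treated tumors against 10.47 to 10.58 in vehicle, so drug replicate 3 stayed below the vehicle arrays as in Irf1. Ciita, the factor that switches on class II genes, differed by 0.08 ± 0.07, and its other probe set by -0.09 ± 0.15. The other probe set of Fgl2 gave a smaller difference, -0.47 ± 0.12.

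The type I interferon list holds mainly ISGF3 targets, together with the receptor chain genes Ifnar1 and Ifnar2 and the receptor kinase gene Tyk2. It had lower means in 27 of 29 measured genes, against 52.1% of all genes, with a median of -0.32, and 0 passed limma over all genes. An ISRE match stood in the windows of 7 of its 20 matched genes and a GAS match in 3. Of the 9887 matched genes tested, 1.68% had an ISRE match and 4.15% a GAS match. Drug replicate 3 was the highest drug array in 27 of the 29, and at or above the lowest vehicle array in 26, against 34.7% and 68.8% of all genes. The medians relative to the vehicle mean were -0.53, -0.49 and 0.07 in drug replicates 1, 2 and 3, next to -0.92, -0.82 and -0.06 for the 8 genes described here. Without drug replicate 3 the list's median was -0.52, and without drug replicate 1 it was -0.19. Trim30a differed by -0.60 ± 0.18, Ifit3 by -0.71 ± 0.28, Mx1 by -0.74 ± 0.32 and Parp14 by -0.35 ± 0.15 (SE, n = 3 per group). Trim30a was the 1 gene of the 29 with groups that did not overlap. Its drug arrays all lay below the vehicle arrays, an order found in 9.37% of all genes. Drug replicate 3 was at or above the lowest vehicle array in 15 of the 34 other interferon-gamma targets, and in 68.8% of all genes. Whether the lists differ in this was not tested.

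Genes of the autophagy machinery that steers IRG and GBP proteins to vacuoles stayed near a median of 0.01 in 19 measured genes, 9 lower and 10 higher, and 0 passed limma. The list's median was -0.04 without vehicle replicate 3. Atg7, which activates the ubiquitin-like proteins of the pathway, differed by 0.24 ± 0.09, though its other probe sets gave 0.06 and 0.03. Lgals3, a galectin of damaged vacuoles, differed by 0.26 ± 0.09, and Ubqln1 and Map1lc3a by -0.11 ± 0.06 and 0.15 ± 0.08 (SE, n = 3 per group).

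**Figure D4:**
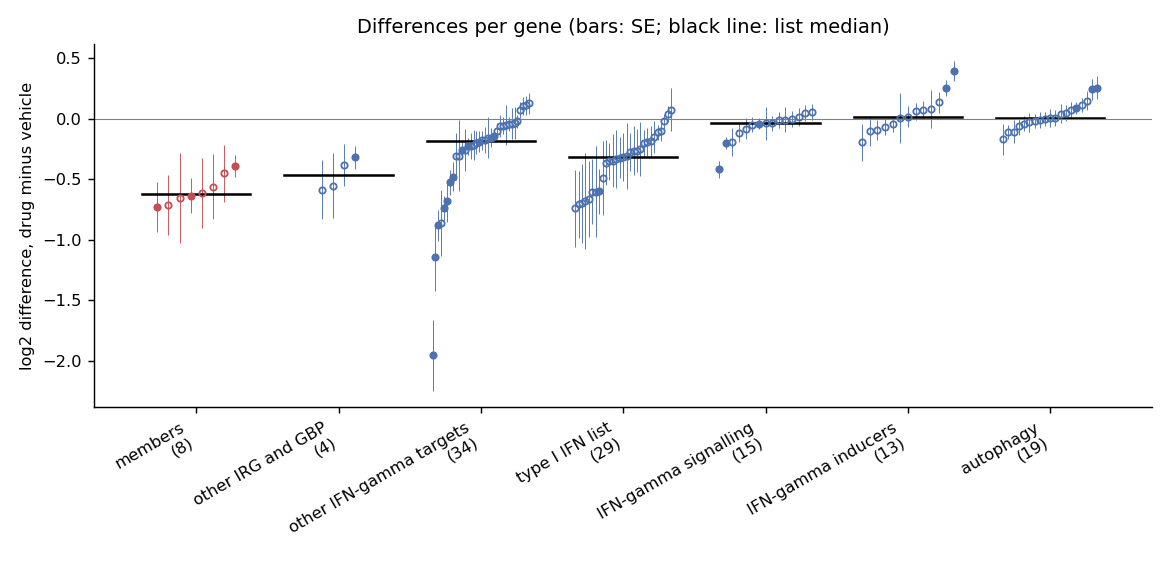
Log2 difference, drug minus vehicle (y axis), for each gene of 7 lists (x axis, number of genes in brackets); bars are SE, black lines list medians, and filled points mark genes whose groups did not overlap. The 8 genes lie between -0.73 and -0.39, and the medians of the signalling, inducer and autophagy lists lie between -0.04 and 0.02. Several genes of the inducer list have levels low on the array's scale.

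Markers of the cells that make or answer interferon-gamma were read beside these values. Of 24 T and NK cell markers 14 had lower means, with a median of -0.05, and the log2 of their summed level ran from 10.07 to 10.28 over the vehicle arrays and from 10.06 to 10.10 over the drug arrays. Zap70 had the highest level of the list, 8.26 to 8.56, and so weighs most in that sum. Cd28 had the lowest, 2.76 to 3.09, where the lower quartile of the arrays was 4.38 to 4.46. Cd247, Cd8b1, Klrd1 and Ncr1 also lay below that quartile in every array. Such values may lie close to background, so a median near 0 says little about the amount of these cells. At an unadjusted limma p under 0.05, 5 of the 24 were lower and 0 higher, against 4.91% and 5.37% of all genes. Cd3d, a CD3 subunit of T cells, differed by -0.52 ± 0.09, while Cd3e, Cd8a and Nkg7 differed by -0.13 ± 0.10, -0.03 ± 0.08 and -0.07 ± 0.15 (SE, n = 3 per group). Named for their small p, Ccl5 and Cd3g differed by -0.58 ± 0.10 and -0.46 ± 0.14, and Cd5 and Cd4 by -0.24 ± 0.08 and -0.30 ± 0.11. Of 19 macrophage markers 12 had lower means, with summed levels of 14.12 to 14.43 over the vehicle arrays and 13.98 to 14.31 over the drug arrays. Adgre1 and Csf1r differed by -0.38 ± 0.17 and -0.32 ± 0.16, whereas Msr1, a scavenger receptor, differed by 0.30 ± 0.08 without overlap of the groups and Cd163 by 0.61 ± 0.48 (SE, n = 3 per group). Aif1, named for its small p, differed by -0.68 ± 0.19, also without overlap. All drug arrays lay below all vehicle arrays in 2 of the 19 markers and above them in 1, against 9.37% and 7.73% of all genes. In drug replicate 3, where the GTPase genes were highest among the drug arrays, the macrophage markers were lowest, with a median of -0.28 relative to the vehicle mean. Of 8 dendritic cell markers 7 had lower means, with summed levels of 8.11 to 8.26 over the vehicle arrays and 7.87 to 8.09 over the drug arrays. Of 14 B and plasma cell markers 10 had lower means, with summed levels of 12.23 to 12.67 and 12.34 to 12.54. Xbp1 had the highest level of that list, 11.69 to 12.20 over the 6 arrays. The sum therefore mostly follows Xbp1 and says little about the other genes of the list. Red blood cell markers had higher means in 5 of 5 genes, with summed levels of 7.39 to 7.63 and 7.92 to 8.78, and epithelial markers in 9 of 13, with 14.86 to 14.98 and 15.01 to 15.12. The groups' summed levels thus did not overlap for the dendritic, red blood cell and epithelial lists. Gene by gene, all drug arrays lay below all vehicle arrays in 1 of the 8 dendritic markers, Itgax, the highest of its list. They lay above in 4 of the 5 red blood cell markers, and above in 3 and below in 1 of the 13 epithelial markers. Over all genes these orders were found in 9.37% (below) and 7.73% (above). Named after their values were seen, the plasma cell genes Jchain and Igha differed by -1.84 ± 0.33 and -1.93 ± 0.45, and the basal keratin genes Krt5 and Krt14 by 0.62 ± 0.17 and 0.60 ± 0.11 (SE, n = 3 per group). Skeletal muscle markers varied most, with medians relative to the 6 arrays of 0.88, -0.65 and 3.15 for the vehicle arrays and 1.99, -2.25 and -2.51 for the drug arrays. With the arrays highest in muscle markers, vehicle replicate 3 and drug replicate 1, both left out, all 8 differences were still negative, from -0.71 to -0.29, and 7 of the 8 genes had drug arrays below all vehicle arrays, against 22% of all genes. The part of each of these cell types in the results was not tested.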

How the data were processed

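RNA of 6 mammary tumor samples was hybridised to Affymetrix mouse arrays. The values are the authors' deposited log2 expression per probe set, made with Affymetrix Expression Console per the submitters' processing notes. The sources used here give neither its version nor the summarisation and normalization, and a log base of 2 was inferred from values between 1.88 and 14.14. Array medians lay between 6.70 and 6.73, and Pearson's r across probe sets was 0.993 to 0.997 within and 0.991 to 0.996 between groups. The number of arrays limits the precision, and detection calls were not used.

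Of 22690 probe sets, 20380 had 1 symbol in the platform annotation of 2016, 691 had several and 1555 none, and 64 were controls. For each of 12393 genes the single-symbol probe set with the highest mean was used. Groups were compared by a two-sided limma test (limma 3.58.1, R 4.3.3, default eBayes) without a level filter, and p-values were adjusted over all genes by Benjamini-Hochberg with a threshold of 0.05. The procedure was tested on simulated data. Standard errors are limma's, and those of second probe sets come from a fit over all single-symbol probe sets. The genes and lists were chosen with earlier results of these data known. From the lists, genes with the smallest unadjusted p (up to 4 per list) and fixed signalling and marker genes are named. Motifs were searched with Python 3.11.15, and figures were drawn with matplotlib 3.10.9. Alternatives were other probe sets of a gene, quantile or median normalization, a level filter, trend and robust eBayes, array weights and each array left out. Leaving out both muscle-rich arrays was added after seeing the data.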

Additional observations from a re-analysis of the deposited data

How the results depend on the processing

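All 8 differences were negative under every alternative run, which covered the mean of all probe sets, quantile normalization, the median shift, each array left out and both muscle-rich arrays left out, and also for the second probe sets of Iigp1 and Gbp2. With each array left out in turn, the median difference of the 8 genes ran from -0.88 to -0.42, the number with drug arrays below all vehicle arrays from 3 to 8, the limma calls over all genes from 0 to 3, and the calls in the pathway lists from 0 to 0. The 3 calls, Gsta3, Serpinb2 and Slc2a9, came without drug replicate 2 and hold none of the genes described. Leaving out both muscle-rich arrays, the number with drug arrays below all vehicle arrays was 7, where fewer arrays make that order more frequent (22% of all genes). Between no pair of arrays were all values identical. No paired analysis was possible because the labels give no replicate numbers, and those used here only name the arrays. Only probe sets with a single symbol were named, so several IRG genes were not analysed here. Values near the bottom of the scale may lie close to background, as for Ifng, Gbp8 and several T and NK cell markers and interferon-gamma inducers.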
